A study of Rattus norvegicus with 8 samples.

Results

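Adhesion molecules of the immunoglobulin superfamily and the enzymes that add polysialic acid were followed in laser-captured lumbar motoneurons of the Wistar albino rat, at postnatal day 21 (P21), once myelination is complete, and at postnatal day 1 (P1), while it is under way. The members were taken by name, as every probe set whose single annotated symbol was Ncam1, Ncam2, L1cam, Chl1, St8sia2, St8sia4, Cadm1, Cadm2, Cadm3 or Cadm4. Of these 10 genes, 9 were found, with 14 probe sets among the 31042 of the table, and Cadm2 was not analysed here. Each age had 4 arrays (Affymetrix RAE230 2.0), each of a separate pool of 4 rats from which 1500 to 2000 motoneurons were cut. Each of the 4 litters gave animals to both ages, and the labels name no transgene or drug. RNA of other cells cut with the motoneurons is part of every pool, and fewer cells of a type cannot be told apart from less RNA per cell.

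NCAM, encoded by Ncam1, is a cell surface protein that binds itself on neighbouring cells and is the main carrier of polysialic acid, a long charged sugar chain that loosens adhesion and allows axons and synapses to rearrange. The chain is built by St8sia2, which in mice and rats is known mainly from the developing brain, and by St8sia4, which remains in parts of the adult brain. L1cam and its close homologue Chl1 support axon growth and bundling. The Cadm proteins, also called SynCAMs or nectin-like proteins, act at synapses and along myelinated fibres, where axonal Cadm3 binds Cadm4 on the Schwann cell.

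Promoter windows are shown for Ncam2 and Chl1, which were both lower at P21 (values below), and for Cadm3, which was higher, so that their start regions can be compared. Each is the stretch of 250 bases before the gene start in RefSeq (GRCr8), which held such a window for 7 of the 10 genes. Capitals mark every match, on either strand, to the GC box GGGCGG, the CCAAT box CCAAT or the TATA box TATAAA.

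Ncam2, GRCr8 chr11:33591573-33591822, plus strand: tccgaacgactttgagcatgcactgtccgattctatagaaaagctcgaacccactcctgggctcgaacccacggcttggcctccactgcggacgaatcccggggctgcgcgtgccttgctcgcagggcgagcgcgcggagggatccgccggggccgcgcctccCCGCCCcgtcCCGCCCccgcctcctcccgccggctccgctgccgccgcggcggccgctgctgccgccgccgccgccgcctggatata

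Chl1, GRCr8 chr4:137847645-137847894, plus strand: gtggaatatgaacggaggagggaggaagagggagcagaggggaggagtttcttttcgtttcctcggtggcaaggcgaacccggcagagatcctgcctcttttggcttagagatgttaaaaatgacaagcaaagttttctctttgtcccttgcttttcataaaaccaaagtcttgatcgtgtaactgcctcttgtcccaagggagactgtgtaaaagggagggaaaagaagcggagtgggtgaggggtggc

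Cadm3, GRCr8 chr13:88349719-88349968, minus strand: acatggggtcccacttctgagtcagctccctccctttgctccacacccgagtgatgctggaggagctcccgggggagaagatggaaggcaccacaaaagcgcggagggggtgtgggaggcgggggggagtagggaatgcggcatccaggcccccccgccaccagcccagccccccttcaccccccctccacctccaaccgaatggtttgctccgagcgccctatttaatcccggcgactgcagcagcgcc

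The Ncam2 window held 2 GC boxes, 87 and 77 bases before the start, and 73.2% of its bases were G or C. The Chl1 and Cadm3 windows held 0 of the 3 motifs, with 49.6% and 66.4% G or C. Among all 33469 windows of that length, 30.5% held a GC box, 34% a CCAAT box and 12.9% a TATA box, and the median share of G or C was 51.2%. The arrays measured no binding there.

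A probe set entered the test if, on 4 or more of the 8 arrays, it read above the 40th percentile of that array, which is called the filter level below. That level lay between 221 and 287. Of the 14 member probe sets, 10 passed, from 7 genes. A change is P21 minus P1 on the scale log2(intensity + 16), written ± its standard error, and the adjusted p is limma's, with Benjamini-Hochberg adjustment over 19155 probe sets. A call is an adjusted p under 0.05, and errors of intensities are SD over 4 arrays per age.

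Of the 10 member probe sets tested, 7 were called, 3 higher and 4 lower at P21, where 38.3% of all probe sets tested were called (20.8% higher, 17.4% lower). In the same 7 the 4 intensities of P21 did not overlap those of P1, as in 38.0% of all probe sets. The probe sets of a gene are not independent, and Ncam2 passed the filter only through its P1 arrays, so these counts describe the members and carry no test. The median change over the 10 was 0.08, and over all probe sets 0.07.

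**Figure D1:**
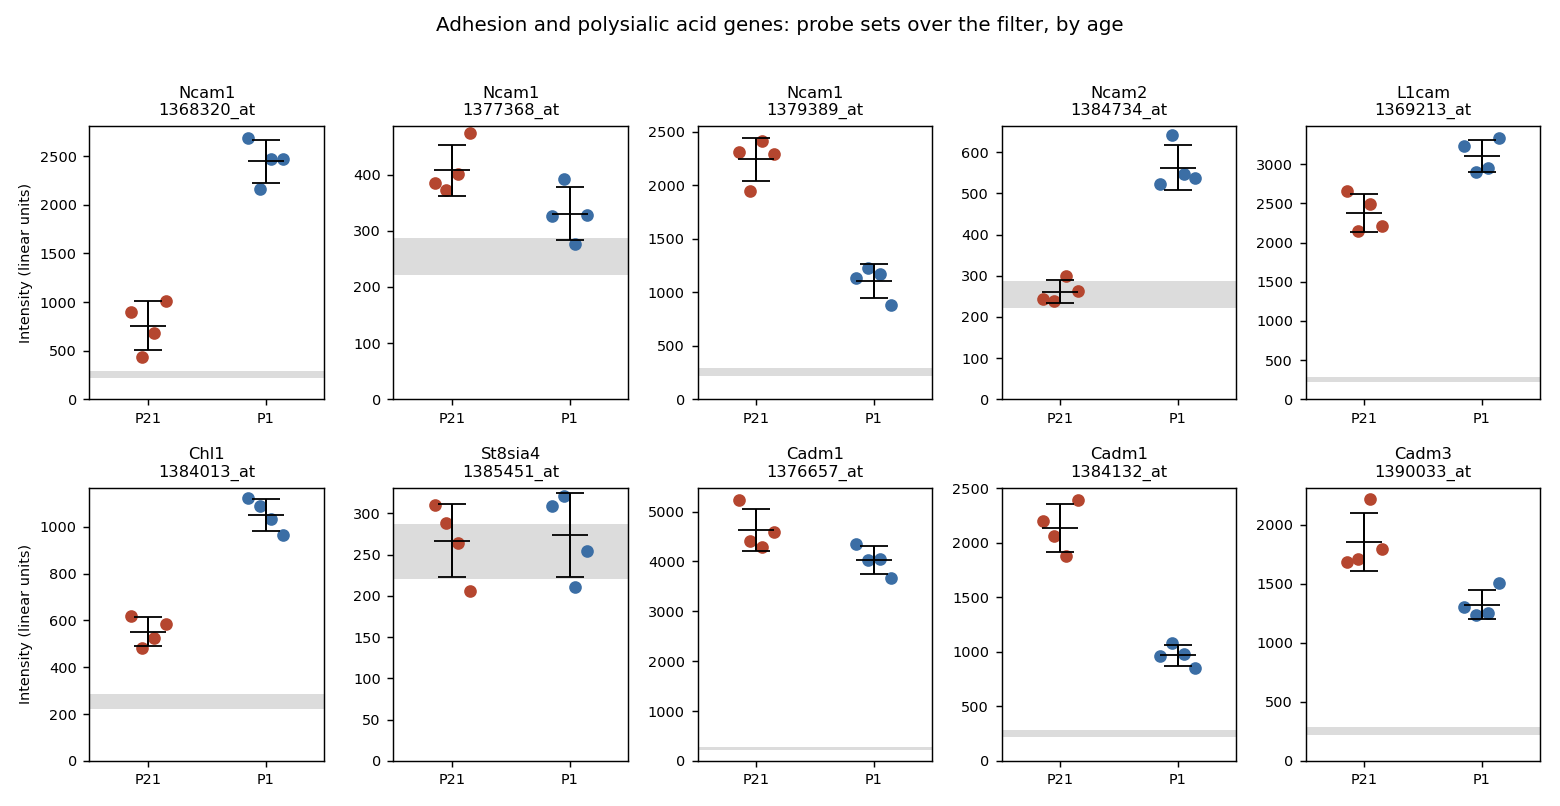
Intensity (linear units) of the 10 member probe sets that passed the filter, with P21 left of P1 in each panel, 1 point per array, and mean and SD in black. The grey band spans the filter level over the 8 arrays (221 to 287), and the 3 Ncam1 panels differ in direction.

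The 3 Ncam1 probe sets did not change alike. Probe set 1368320_at, whose annotation rests on a RefSeq transcript, read 902, 435, 680 and 1006 on P21 replicates 1 to 4, against 2688, 2159, 2469 and 2471 on P1 replicates 1 to 4. All P21 arrays lay below all P1 arrays, and the mean of 756 ± 254 at P21 stood against 2447 ± 218 at P1. The change was -1.74 ± 0.23, or 3.33-fold lower at P21 (adjusted p = 0.000295).

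Probe set 1379389_at of Ncam1, annotated through a record other than a RefSeq transcript, went the other way. It read 2309, 1949, 2411 and 2294 at P21, against 1136, 1231, 1170 and 879 at P1. Every P21 array exceeded every P1 array, and the change was 1.02 ± 0.13, or 2.02-fold higher (adjusted p = 0.000197). The third probe set, 1377368_at, was dimmer, at 384, 372, 401 and 474 in P21 pools and 327, 392, 276 and 327 in P1 pools. Its ages overlapped and its change of 0.29 ± 0.12 missed the threshold (adjusted p = 0.0898), although without P1 replicate 2 it passed (0.38 ± 0.12, adjusted p = 0.0348).

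The inequality itself was tested in each array as the difference of the log2 values of 2 probe sets. The change of 1368320_at was 2.75 ± 0.26 below that of 1379389_at and 2.03 ± 0.26 below that of 1377368_at, written as -2.75 and -2.03 for the first minus the second. The change of 1377368_at was in turn below that of 1379389_at, with a difference of -0.72 ± 0.15. Each had a two-sided exact permutation p of 0.0286 over the 70 splits of 8 arrays, the smallest that 4 arrays against 4 allow, and 0.0286 adjusted over 4 pairs. For 1368320_at and 1379389_at that p was fixed by the separation of their ages in opposite directions, and it adds no evidence. RefSeq (GRCr8) lists 25 Ncam1 transcripts. Which of them each probe set detects, and whether that or distance from the 3′ end moves with the difference, was not tested. The 14 member identifiers all end in a plain _at, without the suffixes that mark probes shared between transcripts of different genes.

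**Figure D2:**
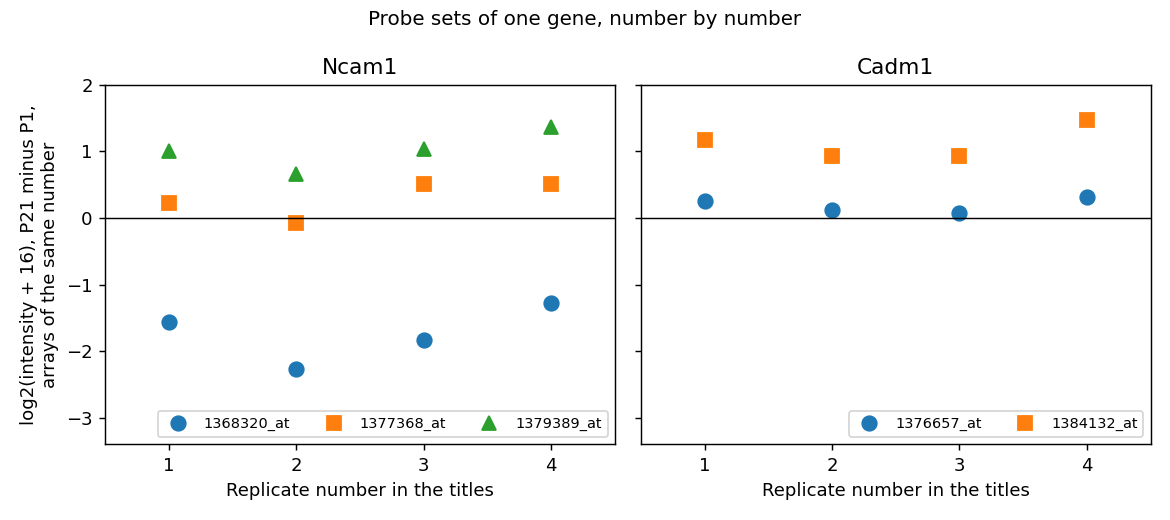
Change per replicate number, as log2(intensity + 16) of the P21 array minus that of the P1 array of the same number, for the probe sets of Ncam1 (left) and Cadm1 (right), 1 point per pair of arrays. For Ncam1, 1368320_at lies between -2.27 and -1.28 and 1379389_at between 0.66 and 1.37, with no overlap.

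Ncam2 encodes a relative of NCAM known from olfactory axons. It read 243, 238, 300 and 264 in P21 pools, against 523, 643, 546 and 538 in P1 pools. The ages were separate, but 3 of the 4 P21 intensities were below the filter level, so no fold is given. The fitted change was -1.06 ± 0.11 (adjusted p = 5.85e-05, and 0.000293 in the fit with no filter), with only 1 P21 array above the filter level behind it. How Ncam1 changed beside Ncam2 depended on the Ncam1 probe set. The change of Ncam1 minus that of Ncam2 was 2.08 ± 0.11 on 1379389_at, the brightest by mean, 1.36 ± 0.11 on 1377368_at and -0.67 ± 0.29 on 1368320_at, so the direction turned, and no p is given for this pair.

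L1cam and Chl1 both fell. L1cam read 2661, 2147, 2498 and 2208 at P21, against 3233, 2904, 2956 and 3333 at P1. The P21 arrays were all lower, and the change was small, -0.39 ± 0.10 or 1.31-fold lower (adjusted p = 0.0146). Chl1 read 619, 482, 524 and 584 at P21, against 1123, 1087, 1036 and 964 at P1. That is a change of -0.92 ± 0.10, or 1.89-fold lower (adjusted p = 0.000122), with no overlap of the ages. The change of L1cam was less negative than that of Chl1 by 0.53 ± 0.10 (exact permutation p = 0.0286, adjusted p = 0.0429 over 3 pairs of related genes). That adjustment includes the pair of Ncam1 and Ncam2, whose own p is not given because its direction turned with the Ncam1 probe set. Without a low p for that pair the adjusted p would be larger, so it is not taken as a call.

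**Figure D3:**
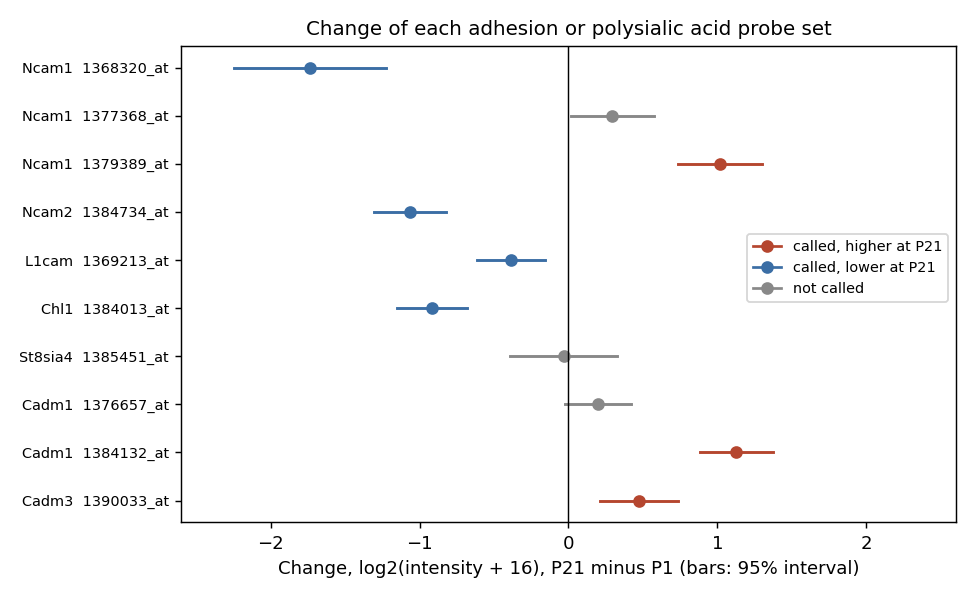
Change of each tested member probe set (P21 minus P1, log2 scale), with 95% intervals from limma as bars. Blue marks calls lower at P21, red calls higher at P21 and grey those not called. Ncam1 1368320_at at -1.74 and Cadm1 1384132_at at 1.13 mark the ends.

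The polysialyltransferases read low at both ages. St8sia2 read 135, 116, 132 and 211 in P21 pools and 135, 152, 110 and 143 in P1 pools, under the filter level on all 8 arrays. The ages overlapped, and only P21 replicate 4 stood somewhat above the rest. Of the 2 St8sia4 probe sets, 1380616_at lay between 24.3 and 68.3 in P21 pools and between 37.7 and 66.1 in P1 pools, again under the filter level throughout. The other, 1385451_at, was just inside the filter, at 310, 288, 264 and 206 in P21 pools and 309, 322, 211 and 254 in P1 pools. Its change was -0.03 ± 0.16 with a 95% interval from -0.39 to 0.33 (adjusted p = 0.889), and the sign turned without P21 replicate 4 or P1 replicate 1 or 2. In a fit of every probe set with no filter, the changes were 0.10 ± 0.18 for St8sia2 (adjusted p = 0.752) and -0.12 ± 0.24 for St8sia4 1380616_at (adjusted p = 0.782). A change in these enzymes was not detectable at this signal, which does not show that their levels were equal. A comparison of St8sia2 with St8sia4 was not made, since St8sia2 did not pass the filter.

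**Figure D4:**
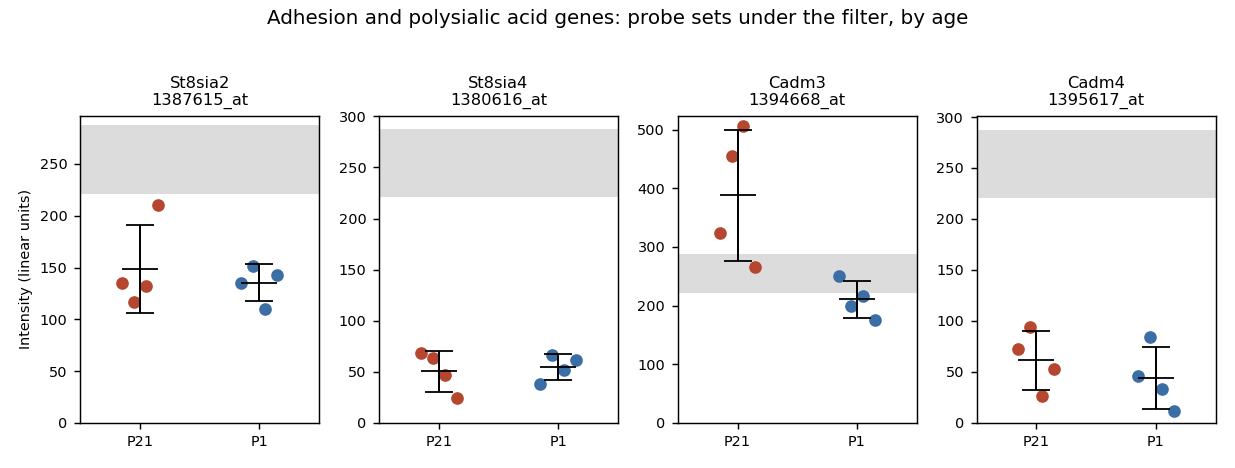
Intensity (linear units) of the 4 member probe sets that did not pass the filter, P21 left of P1, 1 point per array, with mean and SD in black and the filter level as a grey band (221 to 287). St8sia2, St8sia4 1380616_at and Cadm4 lie below the band on all 8 arrays, and Cadm3 1394668_at is above its array's filter level on 3 of the 4 P21 arrays and 0 of the P1 arrays.

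Within the Cadm family, Cadm1 and Cadm3 had probe sets that read well above the filter level. Cadm1 1384132_at read 2196, 2065, 1883 and 2396 in P21 pools, against 964, 1080, 979 and 849 in P1 pools. It rose by 1.13 ± 0.11, or 2.19-fold (adjusted p = 4.79e-05), with the ages fully apart. The brighter Cadm1 1376657_at read 5230, 4406, 4288 and 4582 at P21 and 4356, 4038, 4051 and 3663 at P1. The ages overlapped there, and its change of 0.20 ± 0.10 did not pass (adjusted p = 0.147). The change of 1376657_at minus that of 1384132_at was -0.93 ± 0.09 (exact permutation p = 0.0286, adjusted p = 0.0286 over 4 pairs), so the changes of the Cadm1 probe sets were unequal. RefSeq lists 6 Cadm1 transcripts.

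Cadm3, the axonal partner of Cadm4, read 1685, 1713, 2214 and 1793 on probe set 1390033_at at P21, against 1303, 1236, 1249 and 1505 at P1. Every P21 array was higher, and the change was 0.48 ± 0.12, or 1.39-fold (adjusted p = 0.00981). With each array centred on its median the change was 0.34 and the call was lost (adjusted p = 0.0911). The second Cadm3 probe set, 1394668_at, was just outside the filter, at 324, 455, 507 and 266 in P21 pools and 251, 200, 217 and 175 in P1 pools. All 4 P1 intensities and 1 of the P21 intensities were under the filter level, which gives a mean at least 1.47-fold higher at P21, and in the fit with no filter it was called (0.80 ± 0.21, adjusted p = 0.0229). Between Cadm1 1376657_at and Cadm3 1390033_at the difference in change was -0.28 ± 0.18 (exact permutation p = 0.229, adjusted p = 0.229), and it turned to 0.19 with the mean of both Cadm1 probe sets and to 0.65 ± 0.20 with Cadm1 1384132_at (adjusted p = 0.0571).

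Cadm4, known from Schwann cells and oligodendrocytes, read 72.3, 94.3, 26.5 and 52.8 in P21 pools and 45.9, 84.5, 33.3 and 11.5 in P1 pools. It was under the filter level on all 8 arrays and the ages overlapped, with a change of 0.44 ± 0.41 in the fit with no filter (adjusted p = 0.509).

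Markers of other cells moved with age beside these values. Some passed the filter only through 1 age, so the marker counts carry no test. Mobp, Mog, Opalin and Cd74 were under the filter level on all 4 P1 arrays, and Tac1 on all 4 P21 arrays. Of 10 oligodendrocyte markers tested 8 were called higher and 0 lower at P21, with a summed intensity of 33704 to 36305 per P21 array and 7037 to 8893 per P1 array, and Mbp changed by 2.09 (1.65 on another probe set, and 0.15, not called, on one more). Among 4 Schwann cell markers 3 were higher (11766 to 16241 at P21, 7408 to 10118 at P1). For 4 tested markers of oligodendrocyte precursors 3 were higher (9692 to 11294 at P21, 5626 to 6839 at P1), with Olig2 under the filter level throughout. Pdgfra was not called (-0.08, adjusted p = 0.571). Cspg4 did not pass the filter and read 218 ± 54 at P21 and 302 ± 28 at P1, with overlap of the ages. Of 9 astrocyte markers 7 were higher and 1 lower (22819 to 26959 at P21, 14436 to 15908 at P1), with Gfap at 1.53. Of 6 tested microglial markers 4 were higher (5012 to 9265 at P21, 2604 to 3847 at P1), Aif1 was not called, and Itgam, Cx3cr1 and Ptprc were under the filter level throughout. Itgam and Ptprc went the other way, called lower at P21 in limma's fit with no filter (adjusted p = 0.00607 and 0.0136). Lyz2 and Csf1r read 3278 and 1620 on P21 replicate 4, and at most 1854 and 965 on the other P21 arrays. Vessel markers were higher in 7 of 12 cases (12718 to 24411 at P21, 8822 to 10913 at P1), Cldn5 not among them. These sums include the collagen genes Col1a1 and Col1a2, which read 8626 and 8464 on P21 replicate 4. On the other P21 arrays they read at most 4154 and 3304. Interneuron markers were lower in 6 of 8 cases and higher in 1 (8835 to 11540 at P21, 17096 to 17721 at P1), Gad1 at -0.56 on the probe set used and 0.51 on another that was not called (adjusted p = 0.0844), with Gad2 and Slc6a5 under the filter level throughout. Of 9 motoneuron markers 2 were higher and 1 lower (47773 to 54346 at P21, 46363 to 50094 at P1), Chat at 1.32 and Isl1 at -1.67. Isl1 was under the filter level on 3 of the 4 P21 arrays, so the size of its change is limited by that signal. Several members are also made by glia and interneurons, and the part of these cells in the Ncam1, Chl1, Cadm1 and Cadm3 changes was not tested.

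Related genes were counted in 7 lists, with 1 probe set for each gene. Of 91 genes tested 40 were called (44%), 17 higher and 23 lower at P21, where 39.4% of all genes tested were called (22.0% higher, 17.4% lower), with a median change of 0.05. Among the nearest relatives of L1 and the contactins, 0 of 6 passed limma's test, with 0 at an unadjusted p under 0.05 and a median change of 0.11. Cntn4 and Cntn5 were under the filter level on all 8 arrays, where Cntn5 read 187 to 226 at P21 and 78.0 to 128 at P1 and was called in the fit with no filter (adjusted p = 0.00587). Nrcam (0.06 ± 0.12, adjusted p = 0.750), Nfasc (0.26 ± 0.17, adjusted p = 0.275) and the contactin gene Cntn2 (0.17 ± 0.12, adjusted p = 0.286) belong to this list. One other Nfasc probe set, 1380917_at, did pass (0.89 ± 0.12, adjusted p = 0.000289), while the remaining 3 kept ones did not.

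Other neuronal adhesion genes of the immunoglobulin superfamily were lower at P21 in 8 of 22 cases and higher in 2, with a median of -0.21. Of the lower ones, Nectin3, Iglon5 and Sdk1 were under the filter level on all 4 P21 arrays, and Icam5 on 3. They entered the test through their P1 arrays, where they read higher. Opcml, a member of the IgLON family of lipid-anchored proteins, read 836 ± 215 at P21 and 3390 ± 411 at P1 (-2.02, adjusted p = 2.05e-05), while its other tested probe set had a change of -0.35 that was not called (adjusted p = 0.252). Nectin3, of the nectins to which the Cadm proteins are related, was at least 2.34-fold lower and Iglon5 at least 1.65-fold lower. Nectin4 rose by 0.75 ± 0.13 and Igsf8, a tetraspanin-associated protein, by 0.65 ± 0.12.

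Of 6 tested genes for the synthesis, transport and removal of sialic acid, the sialidase genes Neu1 and Neu2 among them, 1 was lower and 0 were higher at P21 (median 0.10). Over the alternative settings listed at the end, 1 to 2 were lower and 0 to 1 higher. Npl, of the same list, did not pass the filter, with all 4 P21 arrays below the filter level. It read 38.3 ± 11.4 at P21 and 317 ± 69 at P1, at least 1.12-fold lower. Slc35a1, which carries activated sialic acid into the Golgi, averaged 1765 ± 112 at P21 and 2979 ± 583 at P1 (-0.73, adjusted p = 0.00286). On its other 2 tested probe sets the changes were -0.31 and -0.17 and were not called. Gne, the first enzyme of the synthesis, had a change of -0.24 ± 0.09 that missed the threshold (adjusted p = 0.0703) and passed on centring each array (-0.37, adjusted p = 0.0291), with quantile normalization (-0.32, adjusted p = 0.0233) and under a stricter filter, at the 60th percentile (adjusted p = 0.0470). Of 10 other sialyltransferases 3 were higher and 1 lower (median 0.21), against 1 higher and 2 lower on centring, 2 lower with quantile normalization and 1 higher with the filter at the 60th percentile of each array. With no filter 3 were lower, with St6galnac3 and St6galnac5 added, both under the filter level on all P21 arrays. St3gal6 rose at least 2.46-fold, St3gal5, the ganglioside GM3 synthase, by 0.50 ± 0.14 and St6galnac2 by 0.48 ± 0.14, while St6galnac4 fell (-0.82 ± 0.12), its other probe set having a change of 0.08 that was not called. The St3gal5 and St6galnac2 calls were lost on centring (adjusted p = 0.117 and 0.0702), and that of St6galnac2 also without P21 replicate 2 or 4 or P1 replicate 3 or 4 (adjusted p = 0.0602 to 0.0638).

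Among genes whose products signal with NCAM and L1 or tie them to the cytoskeleton, 6 of 19 were lower and 1 higher at P21 (median -0.14). Dcx and Bdnf, among those lower, were under the filter level on all 4 P21 arrays and passed the filter only through their P1 arrays. Dcx, a microtubule protein of migrating and growing neurons, was at least 10.6-fold lower and the neurotrophin gene Bdnf at least 3.58-fold lower. The semaphorin receptor gene Nrp1, whose protein binds L1, fell by 0.80 ± 0.10, and the kinase gene Fyn, which acts downstream of NCAM, by 0.36 ± 0.08 (adjusted p = 0.00690). Fgfr1, a growth factor receptor that NCAM and L1 can engage, rose by 0.42 ± 0.10, and its adjusted p was 0.136 after centring.

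The linkers and partners of Cadm proteins were divided, with 8 of 16 genes higher and 5 lower (median 0.17). Epb41, the red cell band 4.1 protein of a family that binds Cadm tails, averaged 4435 ± 241 at P21 and 2101 ± 484 at P1, and its relative Epb41l2 rose by 0.76 ± 0.10 on its brightest probe set, while another fell (-0.71 ± 0.20, adjusted p = 0.0183). The scaffold gene Mpdz rose by 0.82 ± 0.12. Farp1, which acts with Cadm1 at synapses, fell by 1.99 ± 0.16 (adjusted p = 1.48e-05), its other probe set having a change of -0.21 that was not called. The scaffold genes Apba1 (-1.22, with another probe set at 0.04 and not called) and Mpp2 (-0.65) fell too. The count of 8 higher became 4 on centring, 4 with no filter, 4 without P21 replicate 3 or P1 replicate 4, and 5 without P21 replicate 1 or 4 or P1 replicate 1.

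Of 12 tested genes for proteases and secretase subunits that cleave adhesion molecules, with the matrix protein gene Reln, 3 were higher and 2 lower (median 0.19). Bace2 rose at least 6.87-fold, whereas Bace1, whose enzyme is known to cut Chl1, was under the filter level on all 8 arrays. Psen2 (0.57 ± 0.15, adjusted p = 0.0917 on centring) and Adam22 (0.38 ± 0.11) rose, though the Adam22 protein lacks protease activity, and the Adam22 call was lost on centring (adjusted p = 0.132) and without P1 replicate 4 (0.0525). Reln fell by 1.62 ± 0.18 and Aph1a by 0.41 ± 0.11, the Aph1a call being lost without P1 replicate 3 (adjusted p = 0.0507), which leaves 1 gene lower.

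**Figure D5:**
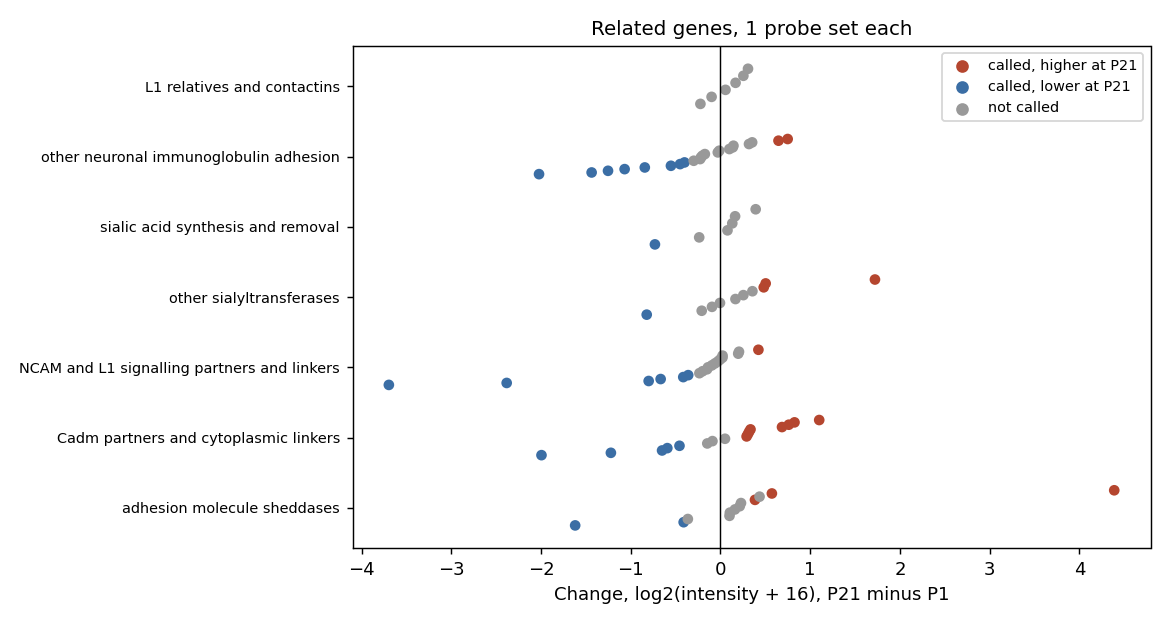
Change (P21 minus P1, log2 scale) of each tested gene in the 7 lists, 1 point per gene, with red called higher at P21, blue called lower and grey not called. The contactin and L1 row holds 0 called genes, and the Cadm partner row has 8 red and 5 blue points.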

How the data were processed

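The authors deposited a table of linear intensity per probe set and array. The probe summary, background correction and normalization are not given in the sources used here. Per the labels' protocols, about 50 ng of RNA per pool was amplified in 2 rounds primed at the poly(A) tail, which favours 3′ ends. Medians per array lay between 400 and 416 at P21 and between 323 and 408 at P1. The 8 arrays limit the precision.

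Symbols came from the platform annotation, and gene identifiers of 20758 of 20826 probe sets with 1 symbol were found in RefSeq (GRCr8), changing 0 symbols. Values below 0 (1075 in all) were set to 0. The log2(intensity + 16) values were fitted across all probe sets with limma 3.58.1 in R 4.3.3 (lmFit, eBayes, no covariate), a procedure tested on simulated data. For each gene in a list, the tested probe set with the highest mean was used. An at-least fold sets the brighter age against the mean filter level of an age whose 4 arrays all lay below it. Differences in change used exact permutation of the arrays.

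Deviations of same-numbered arrays had correlations of 0.514, 0.321, 0.558 and 0.150 for numbers 1 to 4. Different numbers reached 0.366, so the values of 0.321 and 0.150 do not stand out. The design divides litters between the ages, but no label ties a replicate number to a litter. The numbers were taken as pairs and blocked in an alternative only, and whether they are true pairs was not tested. Named were all members, the 3 largest called rises and falls of each list and fixed markers. Additional probe sets, Cntn5, Npl, Pdgfra, Cspg4, St6galnac3 and St6galnac5 were named after their values were seen. The members and lists were chosen with earlier results of these data known.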

Additional observations from a re-analysis of the deposited data

Results flagged for a closer look

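In each group of 4 arrays, the highest or lowest array was set against the others by Dixon's criterion, which chance meets in about 1 of 20 groups. Of 104 groups tested for the members and the genes named by the rules above, 8 met it, and 0 of the 28 groups of member probe sets. P1 replicate 2 was the low array in 5 of them. It read 1128 for Igsf8 (1421 to 1479 on the other P1 arrays), 2783 for Opcml (3539 to 3694), 2496 for Fgfr1 (2795 to 2852), 2222 for Farp1 (2789 to 2837) and 3688 for Fyn (3995 to 4044). P21 replicate 4 read 2212 for Bace2 (1676 to 1726 on the other P21 arrays). P21 replicate 3 read 7.9 for Bace1 (81.1 to 89.8), under the filter level like the others, and 366 for Isl1 (189 to 210).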

How the results depend on the processing

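The alternatives were pseudocounts of 4 and 64, quantile normalization, centring on array medians, no filter, a filter at the 60th percentile, the replicate block and leaving out each array, the last on the same probe sets. Of the 10 tested member probe sets, 6 to 8 were called (7 to 8 without 1 array). With the replicate block 7 were called, as without it, and 8805 of all probe sets against 7329. The block ended 1 call among the genes named, Gad1 (adjusted p = 0.0709), which was also lost with no filter (0.0811) and without P21 replicate 1, 2 or 4 or any 1 of the P1 arrays (0.0540 to 0.102). Blocked differences in change keep their values, and their sign-flip p could not go below 0.125. Without 1 array the exact p could not go below 0.0571, so only their values were compared: they kept their sign throughout.

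Centring lowered the calls higher at P21 over all probe sets to 2631, against 3990, so that 38.6% of calls were higher, against 54.4%, and moved the median of all changes to -0.07, against 0.07. Signs of changes that small depend on the scaling. A few small changes turned sign. St8sia4 1385451_at lay between -0.144 and 0.0790 without 1 array. Nrcam was -0.0815 on centring and between -0.00011 and 0.16 without 1 array. Aif1 was -0.0797 on centring, -0.0388 with quantile normalization and between -0.0718 and 0.19 without 1 array. The Cadm1 and Cadm3 difference was 0.19 with the mean of all kept probe sets and 0.65 with Cadm1 1384132_at, and the Ncam1 and Ncam2 difference was -0.67 with Ncam1 1368320_at, an alternative chosen after seeing the data. The cause was not tested. Genes near the filter level are limited by their signal.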
